A study of Mus musculus with 6 samples.

Results

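Angiogenic factors, growth factor and TGF-beta signalling genes, extracellular proteases with their inhibitors, and epithelial, adhesion and mesenchymal genes were followed in primary mouse hepatocytes that overexpress the oncogene product AEG-1, encoded by Mtdh. The list held 56 genes. A gene was taken as measured where at least 1 probe set carried its symbol alone in the platform annotation, and where it had several, the brightest on average across all 6 arrays stood for it. This gave 55 measured genes of 12393 on the array. Ctgf and Cyr61 are listed there under their current symbols, Ccn2 and Ccn1, and no probe set carried the symbol Areg, so that gene was not analysed here. The tested samples were 3 arrays of cells isolated from Alb/AEG-1 animals, whose transgene, named for Alb, the albumin gene, raises AEG-1 specifically in the hepatocyte, and the comparison samples were 3 arrays of hepatocytes from wild-type (WT) mice. Both genotypes were of a mixed B6/CBA strain, and both sets of cells were untreated, plated on collagen and collected 24 h after plating. The 3 arrays of each genotype are labelled as biological replicates, but whether each came from a different mouse is unstated, and so are the ages of the mice and the number of founder lines.

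New vessels grow when VEGF and angiopoietin ligands act on endothelial receptors, and the VEGF gene is itself a target of the hypoxia-inducible factors, transcription factors that are degraded while oxygen is plentiful. Invading cells loosen junctions built on E-cadherin, cut the matrix with metalloproteases that TIMP proteins hold in check, and can take on mesenchymal features under TGF-beta through the SNAI, TWIST and ZEB transcription factors. In liver, hepatocytes are epithelial cells that carry both E-cadherin and N-cadherin, while endothelial, stellate and Kupffer cells supply many of the other members.

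The array medians lay between 5.61 and 5.64 on the log2 scale. The brightest Mtdh probe set read 10.72, 10.40 and 10.81 in Alb/AEG-1 hepatocytes, against 8.75, 8.78 and 8.64 in WT hepatocytes. None of the other Mtdh probe sets passed when all probe sets were tested, and their differences ran from -0.27 to 0.24. The rise of Mtdh on these arrays therefore rests on that probe set alone. The hepatocyte markers summed to between 159268 and 161719 units of linear signal in Alb/AEG-1 arrays and to between 155074 and 158577 in WT arrays, and all 10 lay above the array median, so the labelled cell type showed its markers. Summed markers of some other liver cells were also brighter in the transgenic cultures. The 12 Kupffer cell and macrophage markers summed to between 1411 and 1466 in Alb/AEG-1 arrays, against 1220 to 1367 in WT arrays, and the 10 sinusoidal endothelial markers to 929 to 990 against 781 to 873. Without the marker that differed most, the Kupffer cell sums (without Marco) were 1361 to 1393 in Alb/AEG-1 arrays against 1180 to 1325 in WT arrays. The endothelial sums without Clec4g almost met, at 720.3 to 762.3 in Alb/AEG-1 arrays against 643 to 719 in WT arrays. The 5 cholangiocyte markers summed to 328 to 347 in Alb/AEG-1 arrays and 284 to 297 in WT arrays, but without Epcam the sums overlapped, at 271 to 277 in Alb/AEG-1 arrays and 261 to 273 in WT arrays. The 11 stellate cell markers overlapped between the genotypes, at 1004 to 1078 in Alb/AEG-1 arrays and 943 to 1019 in WT arrays. Of the markers of these other cells, Ptprc, Marco, C1qc, Kdr, Clec4g, Lum and Epcam passed the test as higher, and below the array median were 3 of 12 Kupffer cell, 3 of 10 endothelial, 6 of 11 stellate cell and 4 of 5 cholangiocyte markers. The part of these cells in the results that follow was not tested, and in such cultures a change in the number of cells of a type cannot be told apart from a change in RNA per cell.

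Of the 55 measured genes, 8 were higher in Alb/AEG-1 hepatocytes and 4 were lower, by limma with Benjamini-Hochberg adjustment over all genes (adjusted p under 0.05). Among all 12393 genes the test called 6.83% higher and 9.05% lower, 15.9% in all, against 14.5%, 7.27% and 21.8% of the members. These shares over all genes are the background for every list count below. Vegfa, Egfr, Mmp13, Cdh1, Cd44, Fn1, Tmsb10 and Tmsb4x rose, and Hbegf, Tgfbr2, Cdh2 and Cyr61 fell. Most of the changes were small: at a threshold of 1.5-fold as well, which 2.89% of all genes met in either direction, Mmp13, Cdh1 and Tmsb10 stayed and no member was lower. The median difference of the members, as Alb/AEG-1 minus WT, was 0.07 on the log2 scale, and that of all genes 0.01. The median size of the difference was 0.18 for members and 0.10 for all genes. For 23 members all arrays of one genotype lay above all of the other, 13 of them higher and 10 lower in Alb/AEG-1 hepatocytes, or 41.8% of them against 34.5% of all genes. The mean of 24 members lay below the array median, and 2 of those passed, Mmp13 and Cd44, as did 10 of the 31 brighter members. The shares of all genes called below and above the array median were not computed, so these counts have no background by signal level.

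**Figure D1:**
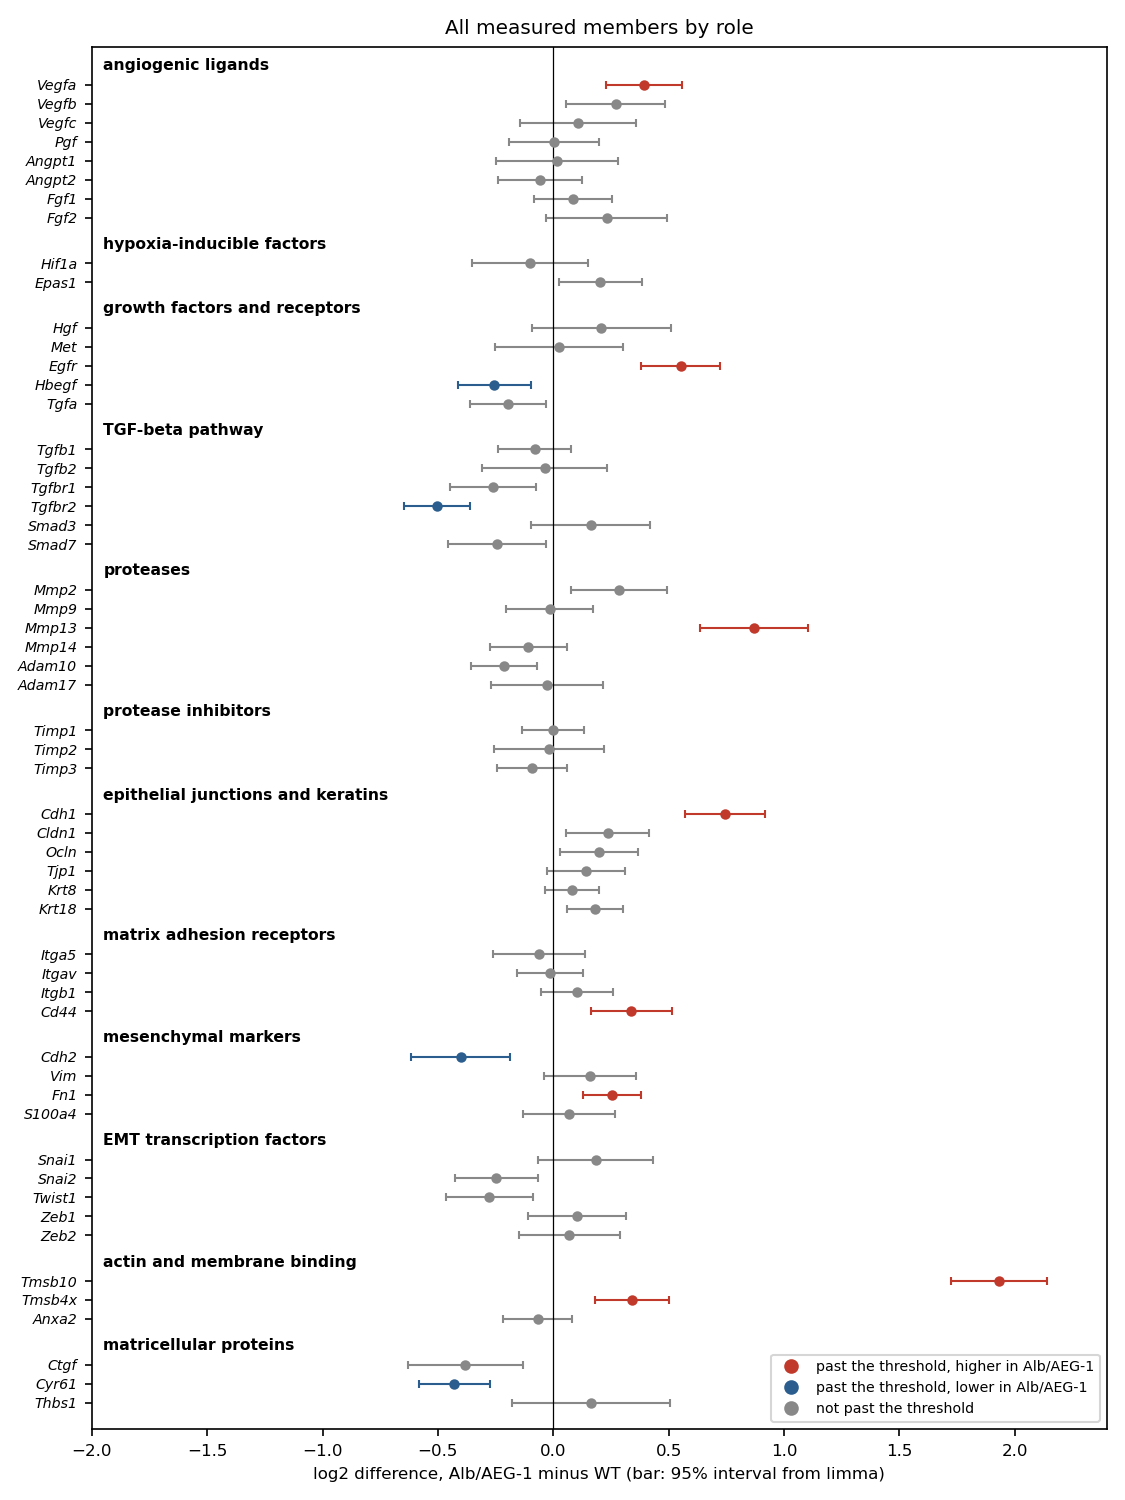
Log2 difference of each of the 55 measured members between 3 Alb/AEG-1 and 3 WT arrays (x axis, Alb/AEG-1 minus WT), grouped by role down the page, where points are limma estimates and bars their 95% intervals. Tmsb10 stands far to the right at 1.93, Cdh1 and Mmp13 follow at 0.74 and 0.87, the 6 epithelial genes all lie right of 0, and the lowest is Tgfbr2 at -0.50.

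Among the 8 angiogenic ligands 1 rose, Vegfa, and none fell, with a median difference of 0.10. Vegfa encodes the principal growth factor for vascular endothelium. It read 9.36, 9.27 and 9.37 in Alb/AEG-1 hepatocytes, against 8.81, 9.02 and 8.99 in WT hepatocytes. All transgenic arrays were above all wild-type arrays, and the difference was 0.39 (SE 0.07, limma adjusted p = 0.00801), or 1.31-fold. The other Vegfa probe set read 8.19, 8.35 and 8.14 in Alb/AEG-1 cells against 7.63, 7.59 and 7.45 in WT cells, a difference of 0.67 that passed when all probe sets were tested (limma adjusted p = 0.00122). Both probe sets of this gene thus passed in the same direction. Of 15 other settings tried, the 1.5-fold threshold left aside as it is for all such counts here, the call was lost under 1, without moderation of the variance (adjusted p = 0.0506). Vegfb, a related ligand of the receptor FLT1, stood at 6.35 ± 0.09 in Alb/AEG-1 and 6.08 ± 0.17 in WT cells (SD, n = 3 each) and did not pass (difference 0.27, limma adjusted p = 0.0945), but did without WT replicate 1 (0.37, adjusted p = 0.0185). The others, Vegfc, Pgf, Angpt1, Angpt2, Fgf1 and Fgf2, had differences from -0.06 to 0.23, and all but Fgf1 lay below the array median. Of 17 endothelial receptors and related genes, Kdr, the main VEGF receptor and an endothelial marker, rose by 0.41 (SE 0.09). Fgfr1, a fibroblast growth factor receptor, fell by 0.29, with its mean below the array median. That was 5.88% of the list in each direction, against 6.83% higher and 9.05% lower of all genes.

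Neither of the hypoxia-inducible factors passed, while 8 of 14 measured regulators and targets of these factors rose and 1 fell, with a median difference of 0.21. That was 57.1% higher and 7.14% lower, against 6.83% and 9.05% of all genes. The list was chosen with earlier results of these data known, and Adm, P4ha1 and Ndrg1 alone were also past 1.5-fold. The risen genes include regulators of the factors, Egln3 and Vhl, beside targets. Vhl rose by 0.25 (SE 0.07, limma adjusted p = 0.0403), with its mean below the array median. Hif1a read 10.53, 10.55 and 10.68 in Alb/AEG-1 hepatocytes and 10.47, 10.69 and 10.91 in WT hepatocytes, and the groups overlapped (difference -0.10, limma adjusted p = 0.608). Its 3 dimmer probe sets gave differences between 0.07 and 0.24, none past the threshold, so the sign for Hif1a is not settled by these arrays. Epas1, which encodes HIF-2 alpha, read 6.69, 6.63 and 6.74 in Alb/AEG-1 hepatocytes, against 6.34, 6.60 and 6.52 in WT hepatocytes. Its arrays did not overlap, but the difference of 0.20 did not pass (SE 0.08, limma adjusted p = 0.127). Adm, which encodes the vasodilator peptide adrenomedullin, was the target with the smallest p. It read 11.50, 11.55 and 11.43 in Alb/AEG-1 cells, against 10.59, 10.54 and 10.52 in WT cells, a rise of 0.94 (SE 0.06, limma adjusted p = 3.92e-05). P4ha1, a collagen prolyl hydroxylase, rose by 0.80 (SE 0.07, adjusted p = 0.000199) on its brightest probe set, and its other one passed as well, at 0.83. Ndrg1, a stress-responsive gene, rose by 0.76 (SE 0.06) and passed on all 5 of its probe sets, with differences from 0.60 to 0.97. Egln3, a prolyl hydroxylase that marks the factors for degradation, rose by 0.37 (SE 0.05, limma adjusted p = 0.00297), while its dimmer probe set gave 0.11 with overlapping arrays (adjusted p over all probe sets = 0.493). Egln2, another such hydroxylase, was the gene that fell, by 0.35. Pdk1 gave -0.36 with arrays that did not overlap, but it did not pass (limma adjusted p = 0.0857). Pgk1, Egln1, Hk2 and Arnt did not pass either, with differences of 0.14, 0.14, 0.02 and -0.05. Leaving out single arrays lowered the count of risen genes to 4 without Alb/AEG-1 replicate 1 or 3 or WT replicate 2, and to 5 without Alb/AEG-1 replicate 2. The labels give no treatment for any sample, and the oxygen level of the cultures is unstated.

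**Figure D2:**
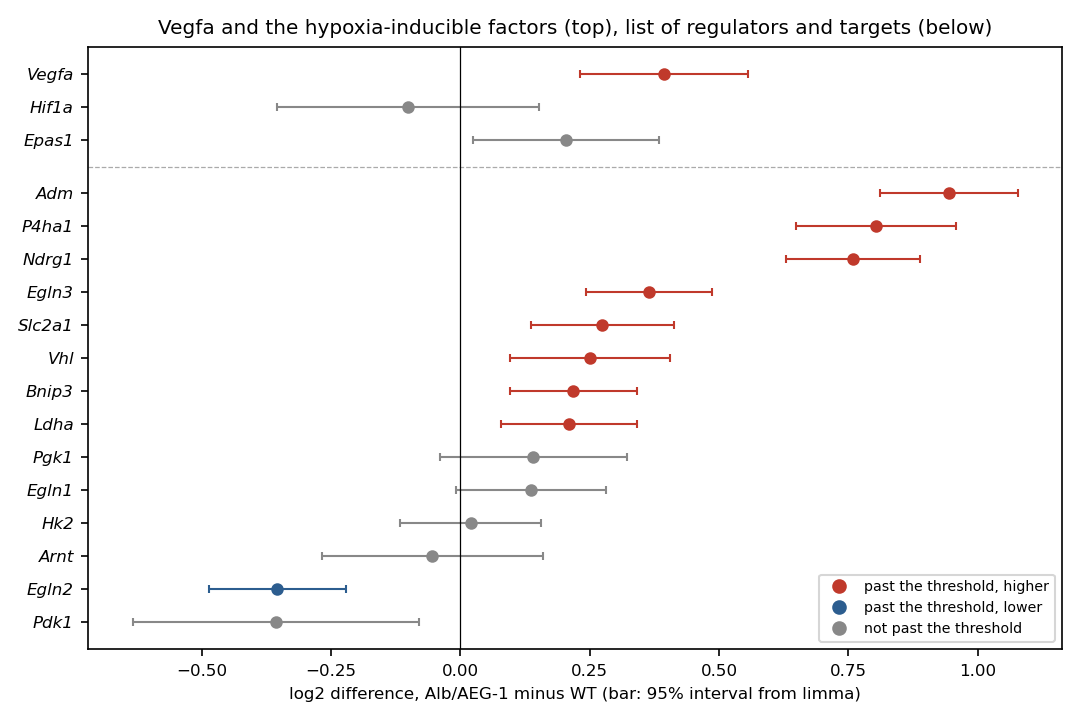
Log2 differences (x axis, Alb/AEG-1 minus WT, 3 arrays each) of Vegfa, Hif1a and Epas1 above the dashed line and of the 14 listed regulators and targets of hypoxia-inducible factors below it, where bars are 95% intervals from limma. Adm, P4ha1 and Ndrg1 lie between 0.76 and 0.94, Hif1a spans 0, and Egln2 at -0.35 is the gene past the threshold on the left.

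Since Vegfa moved with these targets, the 250 bases ahead of the transcription start are shown for it and for 4 of them, as RefSeq gives them on GRCm38.p6, read 5′ to 3′ on the gene's strand. The window of P4ha1 lies ahead of a RefSeq start that is not the outermost one of the gene, and the others lie ahead of the outermost start. Capitals mark the core of the hypoxia response element, ACGTG on either strand.
Vegfa, chr17:46032378-46032627, - strand: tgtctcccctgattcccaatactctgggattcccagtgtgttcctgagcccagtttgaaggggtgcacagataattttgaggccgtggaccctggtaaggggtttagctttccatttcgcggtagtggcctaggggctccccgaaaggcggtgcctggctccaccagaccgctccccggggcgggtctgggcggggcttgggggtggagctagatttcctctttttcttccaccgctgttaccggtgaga
Adm, chr7:110627407-110627656, + strand: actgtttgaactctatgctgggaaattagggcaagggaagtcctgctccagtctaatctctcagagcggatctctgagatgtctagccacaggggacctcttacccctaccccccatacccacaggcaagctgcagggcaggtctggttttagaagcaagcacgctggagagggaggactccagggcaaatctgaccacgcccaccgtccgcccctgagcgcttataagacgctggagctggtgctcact
P4ha1, chr10:59323046-59323295, + strand: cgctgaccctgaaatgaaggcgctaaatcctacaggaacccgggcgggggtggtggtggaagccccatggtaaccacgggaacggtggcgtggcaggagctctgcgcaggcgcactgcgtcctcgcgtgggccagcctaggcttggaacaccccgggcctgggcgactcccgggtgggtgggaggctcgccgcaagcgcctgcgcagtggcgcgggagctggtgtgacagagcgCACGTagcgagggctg
Egln3, chr12:54203875-54204124, - strand: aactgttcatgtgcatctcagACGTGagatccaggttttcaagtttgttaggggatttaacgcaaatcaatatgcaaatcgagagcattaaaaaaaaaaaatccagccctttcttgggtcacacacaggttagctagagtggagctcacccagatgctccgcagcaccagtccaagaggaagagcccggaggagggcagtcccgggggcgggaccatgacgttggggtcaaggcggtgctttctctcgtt
Slc2a1, chr4:119108495-119108744, + strand: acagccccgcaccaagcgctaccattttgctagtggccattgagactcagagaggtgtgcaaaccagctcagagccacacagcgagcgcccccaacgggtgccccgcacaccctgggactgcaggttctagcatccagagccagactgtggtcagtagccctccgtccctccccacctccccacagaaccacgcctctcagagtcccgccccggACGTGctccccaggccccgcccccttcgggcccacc
The core was present in 16.6% of 32851 RefSeq windows of that length. It occurred in 5 of 8 windows of the risen list genes and in 4 of 8 windows of those that did not rise. Counted by gene, it occurred in 5 of the 7 risen genes that had a window, Bnip3, Egln3, Ldha, P4ha1 and Slc2a1. Of the listed genes that did not rise, 4 of 6 had it. The windows shown for Vegfa and Adm did not hold it, which says nothing about elements farther away. A window that does hold it, not shown, lies ahead of another RefSeq start of Vegfa, at chr17:46025164-46025413. That start is downstream of the outermost one, inside the gene, and whether the stretch acts as a promoter was not tested. Over all members, 10 of 50 windows held it. A match describes these letters and is not a binding site.

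Among growth factors and their receptors, the receptor Egfr rose and its ligand gene Hbegf fell, while Hgf, Met and Tgfa did not pass. Egfr encodes the epidermal growth factor receptor, which hepatocytes carry at high density. Its brightest probe set read 11.03, 11.12 and 10.96 in Alb/AEG-1 hepatocytes, against 10.60, 10.45 and 10.39 in WT hepatocytes. The groups were well apart, by 0.55 (SE 0.07, limma adjusted p = 0.00204), or 1.47-fold. The second brightest of 5 Egfr probe sets gave 0.22 (adjusted p over all probe sets = 0.0886), another gave -0.14, and the mean of all 5 gave 0.15, which did not pass (adjusted p = 0.110). The Egfr call therefore rests on 1 probe set. Hbegf encodes heparin-binding EGF-like growth factor. It read 7.71, 7.73 and 7.70 in Alb/AEG-1 hepatocytes, against 7.93, 8.10 and 7.87 in WT hepatocytes, a fall of 0.25 (SE 0.07, limma adjusted p = 0.0414). Its arrays did not overlap, and the dimmer probe set gave a fall of 0.40 (adjusted p over all probe sets = 0.00526). The call at the brightest probe set passed under 6 of 15 alternatives and was lost without any single array other than WT replicate 3, with adjusted p up to 0.112. Tgfa, another EGFR ligand, gave -0.20 at its brightest probe set and 0.32 and 0.28 at the others, none past the threshold. Of 12 other genes of EGF signalling and HGF activation, Btc, the EGFR ligand betacellulin, rose by 0.64 (SE 0.08, limma adjusted p = 0.00165), passing on each of its 2 probe sets, and none fell. Hgf and its receptor gene Met lay below the array median, with differences of 0.21 and 0.03.

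In the TGF-beta pathway the type II receptor gene fell and no member rose. Of the 6 differences 5 were negative, some of them near 0, as were 5818 of those of all 12393 genes. Tgfbr2, the receptor that binds the ligand and activates its type I partner, read 7.23, 7.12 and 7.10 in Alb/AEG-1 hepatocytes, against 7.63, 7.61 and 7.73 in WT hepatocytes. The wild-type arrays all lay above the transgenic ones, by 0.50 (SE 0.06, limma adjusted p = 0.00142), or 1.42-fold. The other Tgfbr2 probe sets were dim, at means of 4.96 and 2.70, and gave -0.02 and 0.04, so the mean of the 3 gave -0.16, which did not pass (adjusted p = 0.131). Tgfbr1, the type I receptor gene, stood at 7.82 ± 0.08 in Alb/AEG-1 and 8.08 ± 0.13 in WT cells (SD, n = 3 each). Its arrays did not overlap and the difference of -0.26 did not pass (limma adjusted p = 0.0643). It did pass under 5 alternatives, among them the fit without WT replicate 1 (adjusted p = 0.0234). The dimmer Tgfbr1 probe sets, at means of 3.76 and 3.14, gave 0.11 and -0.11 and did not pass. Smad7, which encodes an inhibitory SMAD that TGF-beta induces, gave -0.24 (limma adjusted p = 0.121) and passed without Alb/AEG-1 replicate 3 (-0.34, adjusted p = 0.0287). Smad3, which carries the signal to the nucleus, and the ligand genes Tgfb1 and Tgfb2 lay below the array median and overlapped between the genotypes, with differences of 0.16, -0.08 and -0.04. Of 18 other genes of TGF-beta and BMP signalling 3 rose and 3 fell, 16.7% in each direction, against 6.83% higher and 9.05% lower of all genes. Id2, a BMP-responsive inhibitor of helix-loop-helix factors, fell by 0.63 (SE 0.06, limma adjusted p = 0.000331) and Acvr1, a type I receptor for BMP and activin, fell by 0.64 (SE 0.07), though a dim probe set of Acvr1 passed as higher. Tgif1, a repressor of SMAD-driven transcription, rose by 0.36 and Id3 rose by 0.32.

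Among proteases 1 of 6 rose, Mmp13, and among the 3 inhibitors none passed at its brightest probe set. Mmp13 encodes collagenase 3, the main interstitial collagenase of rodents. It read 3.61, 3.65 and 3.98 in Alb/AEG-1 hepatocytes, against 2.96, 2.81 and 2.87 in WT hepatocytes. The groups were far apart relative to their spread, with a difference of 0.87 (SE 0.10, limma adjusted p = 0.00104) and the call kept under all 14 alternatives that gave it a value, but every one of these readings lies below the array median of 5.63. Mmp2, the gelatinase A gene, gave 0.28 (limma adjusted p = 0.0731), also at low signal, with arrays that did not overlap. Mmp9 and Mmp14 gave -0.02 and -0.11. Adam10, a sheddase of Notch and cadherins, read 7.07, 7.00 and 7.06 in Alb/AEG-1 hepatocytes, against 7.18, 7.34 and 7.25 in WT hepatocytes, and its difference of -0.21 just missed the threshold (limma adjusted p = 0.0522). A dimmer Adam10 probe set, at a mean of 5.04, passed in the other direction (0.32, adjusted p over all probe sets = 0.0271), so the probe sets disagree. Adam17, which sheds EGFR ligands, overlapped between the genotypes (-0.03). Timp3, a matrix-bound inhibitor and the one with the smallest p, read 5.33, 5.46 and 5.27 in Alb/AEG-1 hepatocytes and 5.40, 5.45 and 5.49 in WT hepatocytes (difference -0.09, limma adjusted p = 0.412). One of its 4 probe sets, at a mean of 3.95, passed as higher by 0.47. Timp1 gave -0.0014 with a 95% interval from -0.14 to 0.13, and Timp2 gave -0.02 with an interval from -0.26 to 0.22. Of 18 other extracellular proteases and inhibitors, Adam9 rose by 0.32 and Adamts1, a matrix protease that also restrains vessel growth, fell by 0.40. That was 5.56% of the list in each direction, against 6.83% higher and 9.05% lower of all genes.

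The Mmp13 window is shown because this collagenase had the largest rise among the protease genes and its promoter is known for an AP-1 element, marked in capitals (TGANTCA on either strand).
Mmp13, chr9:7272264-7272513, + strand: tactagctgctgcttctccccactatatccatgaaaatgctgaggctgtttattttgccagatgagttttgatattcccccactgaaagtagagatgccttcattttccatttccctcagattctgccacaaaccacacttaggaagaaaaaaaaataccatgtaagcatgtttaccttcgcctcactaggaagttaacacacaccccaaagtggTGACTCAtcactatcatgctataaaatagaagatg
That motif was found in 6.75% of the same 32851 windows and in 4 of the 50 windows of members, namely those of Mmp13, Met, Anxa2 and Zeb2. Of these genes Mmp13 alone was past the threshold.

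All 6 epithelial junction and keratin genes had positive differences, with a median of 0.19, and 1 passed, Cdh1. Of all 12393 genes, 6575 had positive differences. Cdh1 encodes E-cadherin, the adhesion molecule of adherens junctions. It read 9.14, 9.14 and 9.03 in Alb/AEG-1 hepatocytes, against 8.22, 8.42 and 8.45 in WT hepatocytes. The transgenic arrays were all higher, by 0.74 (SE 0.08, limma adjusted p = 0.000531) or 1.67-fold, and the call was kept under all 15 alternatives. Cldn1, a tight junction claudin, read 8.64, 8.73 and 8.71 in Alb/AEG-1 hepatocytes, against 8.30, 8.54 and 8.54 in WT hepatocytes, a difference of 0.24 that did not pass (SE 0.08, limma adjusted p = 0.0802). Its second probe set read 7.73, 7.73 and 7.81 in Alb/AEG-1 cells against 6.94, 7.11 and 7.01 in WT cells and passed, at 0.74. With probe sets that match several transcripts left out, that probe set stands for Cldn1 (adjusted p = 0.000251), and with the mean of its probe sets the gene passed at 0.29 (adjusted p = 0.0112). Krt18, the keratin partner of Krt8 in hepatocytes, was 13.83 ± 0.01 in Alb/AEG-1 and 13.65 ± 0.04 in WT cells (SD, n = 3 each), with no overlap, and just missed the threshold (0.18, limma adjusted p = 0.0554). Krt8 gave 0.08, also without overlap, Ocln 0.20 and Tjp1 0.14. Among 16 other junction genes, Ctnnb1, the catenin that binds E-cadherin and also acts in Wnt signalling, rose by 0.19 (SE 0.05, limma adjusted p = 0.0485). In that list Gjb2, the connexin 26 gene, fell by 0.29, and the median difference was 0.08.

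Among the matrix adhesion receptors Cd44 rose and the 3 integrin genes did not pass. Cd44, the hyaluronan receptor, read 4.90, 5.06 and 5.10 in Alb/AEG-1 hepatocytes, against 4.77, 4.68 and 4.58 in WT hepatocytes. The groups did not overlap, with a difference of 0.34 (SE 0.08, limma adjusted p = 0.0216), but all readings were below the array median. The call was lost without Alb/AEG-1 replicate 2 or 3 and without WT replicate 2 or 3 (adjusted p from 0.0660 to 0.0753). It was also lost with a replicate block (adjusted p = 0.0671) and without moderation of the variance (adjusted p = 0.0928), and its second probe set gave 0.25 (adjusted p over all probe sets = 0.0756). CD44 is also carried by leukocytes, whose marker Ptprc rose by 0.61 in the same arrays, with its mean below the array median. Of the 12 Kupffer cell and macrophage markers 3 passed as higher, Ptprc among them, while Adgre1, Clec4f, Csf1r, Cd5l and Tyrobp overlapped between the genotypes. The part of such cells was not tested. Itgb1, the common beta subunit of collagen and fibronectin receptors, gave 0.10 with a 95% interval from -0.05 to 0.26. Itgav and Itga5 gave -0.01 and -0.06.

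The mesenchymal markers went both ways, with Cdh2 lower, Fn1 higher at its brightest probe set, and Vim and S100a4 not past the threshold. Cdh2 encodes N-cadherin, which hepatocytes carry beside E-cadherin. It read 9.13, 9.13 and 9.17 in Alb/AEG-1 hepatocytes, against 9.32, 9.63 and 9.67 in WT hepatocytes. The wild-type values were higher and more spread, and the fall was 0.40 (SE 0.09, limma adjusted p = 0.0234). The second Cdh2 probe set gave -0.19 (adjusted p over all probe sets = 0.139), and the call was lost without any single array other than WT replicate 1 (adjusted p from 0.0628 to 0.0841) and without moderation of the variance (adjusted p = 0.118). Cdh1 and Cdh2 thus moved in opposite directions on their brightest probe sets, and the Cdh1 call was the firmer of the pair. Fn1 encodes fibronectin, which hepatocytes secrete into plasma and other cells deposit in the matrix. Its brightest probe set read 12.21, 12.19 and 12.13 in Alb/AEG-1 hepatocytes, against 11.94, 11.94 and 11.88 in WT hepatocytes, a rise of 0.26 (SE 0.05, limma adjusted p = 0.0171). Its other probe set read 7.64, 7.71 and 7.61 in Alb/AEG-1 hepatocytes, against 8.03, 8.31 and 8.20 in WT hepatocytes, a fall of 0.53 (SE 0.08, adjusted p over all probe sets = 0.00418). Fn1 was the 1 member whose probe sets passed in both directions, and their mean gave -0.14 (adjusted p = 0.154), so no single direction holds for this gene. The 3′ minus 5′ signal of the Actb control probe sets was 0.84, 0.87 and 0.92 in Alb/AEG-1 arrays and 0.87, 0.89 and 0.93 in WT arrays, and that of Gapdh overlapped likewise, so this measure of RNA quality did not separate the genotypes. Without Alb/AEG-1 replicate 1 or 2, or WT replicate 3, the Fn1 call at the brightest probe set was lost as well (adjusted p from 0.0585 to 0.0703). Vim, the vimentin gene, gave 0.16 and S100a4, a small calcium-binding protein gene, gave 0.07 at low signal, both with overlapping arrays. Of 15 other mesenchymal genes, collagens and smooth muscle actin among them, 0 passed by limma at the brightest probe set. An unadjusted p under 0.05 was found for 3 of them, and for 3586 of all 12393 genes. One dimmer probe set, of Cald1, the caldesmon gene, passed as lower (-0.65, adjusted p over all probe sets = 0.0179), against 0.14 at the brightest one of that gene. The median difference of the 15 mesenchymal genes was 0.11, and 11 of them lay below the array median.

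None of the 5 transcription factors of epithelial-mesenchymal transition passed, 0 in either direction by limma, and 2 of them, Snai2 and Twist1, had an unadjusted p under 0.05. Both were lower in the transgenic cells. By the same test 3586 of all 12393 genes had an unadjusted p under 0.05, so such a value is common here. Twist1 read 3.46, 3.55 and 3.49 in Alb/AEG-1 hepatocytes, against 3.94, 3.64 and 3.75 in WT hepatocytes, with no overlap (difference -0.28, SE 0.08, limma adjusted p = 0.0554), and passed without WT replicate 2 (-0.35, adjusted p = 0.0364). Snai2, the Slug gene, stood at 5.04 ± 0.09 in Alb/AEG-1 and 5.29 ± 0.12 in WT cells (SD, n = 3 each), a difference of -0.25 (limma adjusted p = 0.0699). Zeb1 was the 1 factor above the array median and gave 0.10 with a 95% interval from -0.11 to 0.32. Snai1 and Zeb2 gave 0.18 and 0.07. The other 4 lay below the array median.

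Both thymosin genes rose and Anxa2, the annexin that binds plasminogen activators at the cell surface, did not pass (-0.07). Thymosins hold actin monomers out of filaments. Tmsb10 read 10.28, 10.12 and 10.26 in Alb/AEG-1 hepatocytes, against 8.48, 8.21 and 8.18 in WT hepatocytes, the widest separation among the members (1.93, SE 0.09, limma adjusted p = 9.28e-06). Of its 5 probe sets 3 passed as higher, by 1.93, 1.96 and 0.65, and all 3 match several transcripts by their naming. The 1 probe set without such a mark, at a mean of 4.65, gave 0.09 (adjusted p = 0.489 when it stands for the gene) and the mean of all 5 gave 0.99, so signal of related transcripts in the larger values cannot be told apart. Tmsb4x, which encodes thymosin beta 4, read 8.95, 8.96 and 9.02 in Alb/AEG-1 hepatocytes, against 8.72, 8.51 and 8.68 in WT hepatocytes. It rose by 0.34 (SE 0.07, limma adjusted p = 0.0134) with no overlap, and the call was lost without Alb/AEG-1 replicate 3 (adjusted p = 0.0514) and without moderation of the variance (adjusted p = 0.0610). Leukocytes are rich in thymosin beta 4, and the summed Kupffer cell and macrophage markers were higher in the transgenic arrays, as given above, with their part not tested.

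Among the matricellular proteins Cyr61 fell, Ctgf was lower without passing and Thbs1 overlapped. Cyr61 (CCN1) and Ctgf (CCN2) are secreted integrin ligands that YAP, SRF and TGF-beta induce. Cyr61 read 10.17, 10.16 and 10.10 in Alb/AEG-1 hepatocytes, against 10.46, 10.65 and 10.61 in WT hepatocytes. All transgenic arrays were lower, by 0.43 (SE 0.07, limma adjusted p = 0.00435), or 1.35-fold. Its other probe set read 9.91, 9.90 and 9.85 in Alb/AEG-1 cells against 10.36, 10.35 and 10.30 in WT cells and fell by 0.45 (adjusted p over all probe sets = 0.00159). Both Cyr61 probe sets passed in the same direction, and the call was kept under all 14 alternatives that gave it a value. Ctgf read 4.97, 5.22 and 4.94 in Alb/AEG-1 hepatocytes, against 5.56, 5.22 and 5.48 in WT hepatocytes. The closest arrays of the genotypes almost met, the difference of -0.38 just missed the threshold (SE 0.11, limma adjusted p = 0.0504), and Ctgf passed without Alb/AEG-1 replicate 2 (-0.47, adjusted p = 0.0322) or WT replicate 2 (-0.48, adjusted p = 0.0294). Thbs1, thrombospondin 1, an inhibitor of angiogenesis and activator of latent TGF-beta, gave 0.16 at low signal.

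**Figure D3:**
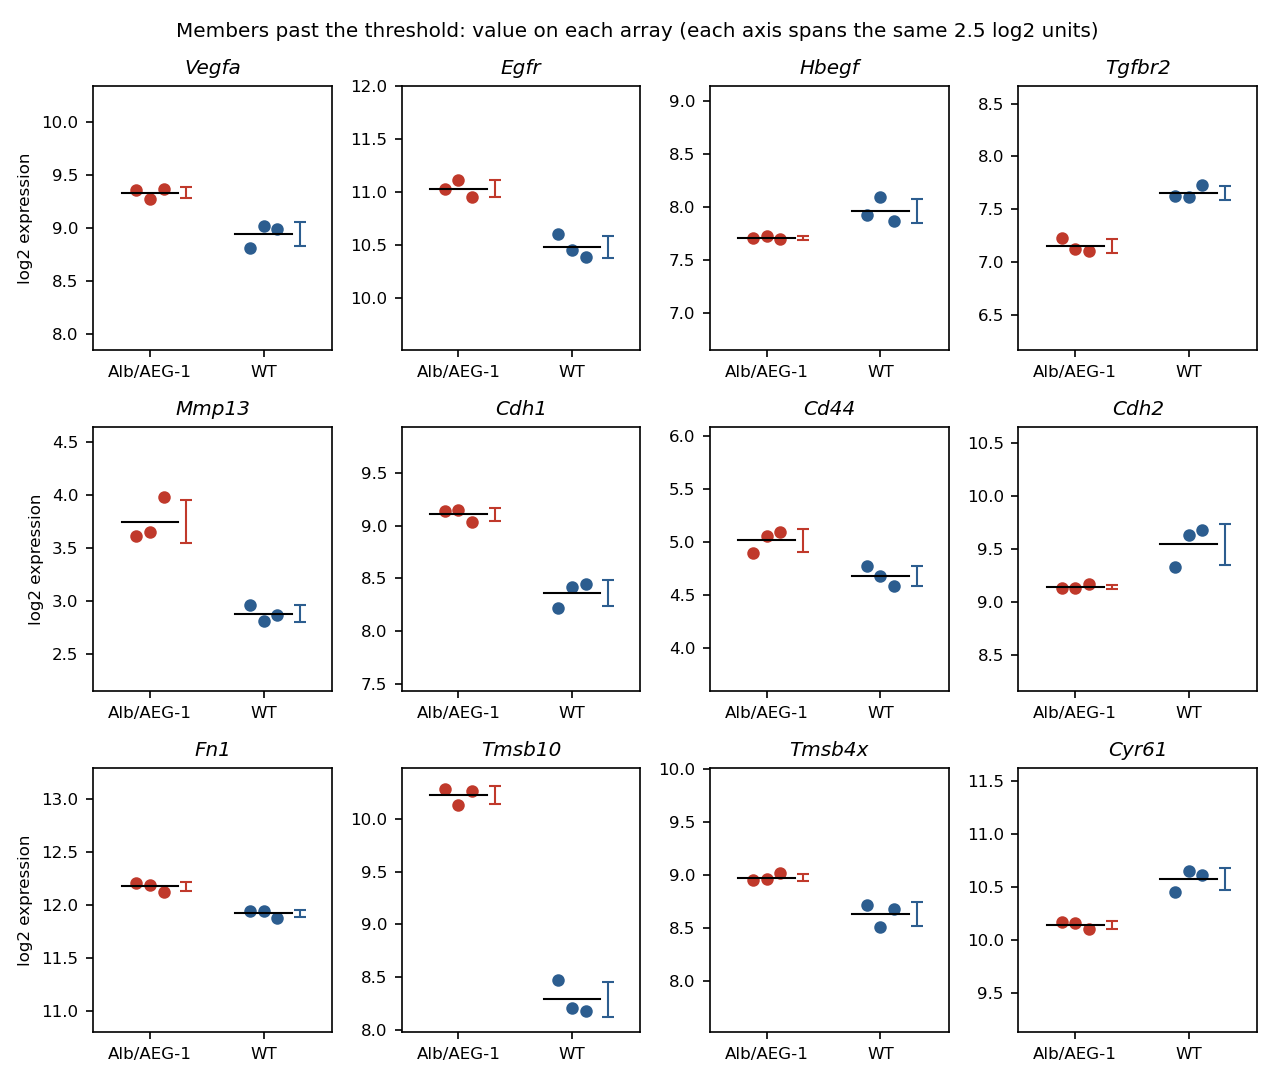
Log2 expression on each array (y axis, the same span in every panel) of the 12 members past the threshold, with Alb/AEG-1 arrays to the left of WT arrays, where points are arrays, lines group means and bars the SD of 3 arrays. The groups do not overlap in any panel, the gap is widest for Tmsb10, and the differences of Hbegf (-0.25) and Fn1 (0.26) are the smallest.

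Probe sets were compared next, since 32 members had several. Of the 117 probe sets of the members, 14 passed as higher and 6 as lower, 17.1% in all. Among all 22626 non-control probe sets, those without a single gene symbol included, 12.0% passed. Counting any probe set, 15 members had 1 or more past the threshold. The like share of all genes was not computed, so the shares given above are no background for that count. Cyr61 and Vegfa passed on both of theirs. Egfr, Tgfbr2, Cd44 and Cdh2 passed on 1 each, and Cldn1, Adam10, Timp3 and Hbegf passed in this test on a probe set that was not their brightest.

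**Figure D4:**
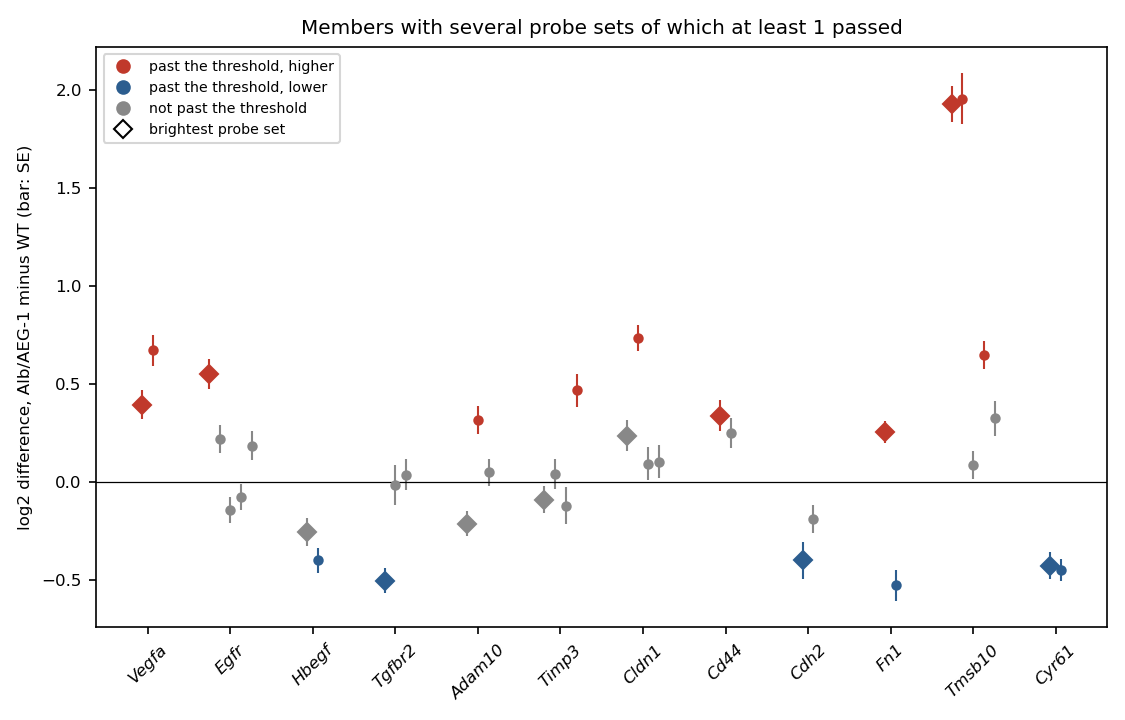
Log2 difference (y axis, Alb/AEG-1 minus WT, bars are limma SE) of every probe set of the 12 members that have several and at least 1 past the threshold over all probe sets, with the brightest drawn as a diamond. Both Vegfa probe sets lie above 0 and both Cyr61 probe sets below it, while those of Fn1 lie on opposite sides at 0.26 and -0.53.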

How the data were processed

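Gene expression was measured on 6 Affymetrix mouse arrays, 3 per genotype. The deposited values are log2 expression per probe set, made by the authors using Affymetrix Expression Console and its RMA method (per the submitters' processing notes). RMA corrects background, quantile-normalises and combines the probes of a set, so a value is relative to the other genes on the array and differences at low signal are compressed. Joint processing of all arrays is unstated. Of 22690 probe sets 64 were controls, 20380 carried 1 gene symbol, 691 several and 1555 none, by the platform annotation. Each of 12393 genes was represented by its brightest single-symbol probe set.

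Genotypes were compared with limma 3.58.1 (lmFit, eBayes) in R 4.3.3, two-sided, with Benjamini-Hochberg adjustment over all genes and a threshold of 0.05. Probe sets were also tested singly. With 3 arrays against 3, p-values reflect only how these samples spread, which may be technical. The members and gene lists were chosen with earlier results of these data known. Named genes are members past the threshold, the member with the smallest p in role groups without one, and up to 4 genes of each further list with the smallest adjusted p. Vegfb, Tgfbr1 and other members short of the threshold, Egln2, Vhl, the hypoxia list genes that did not pass, Cald1 and the marker genes were named after their values were seen. Marker sums add 2 to the power of each log2 value. Promoters come from RefSeq, GRCm38.p6. The procedure was tested on simulated data. Arrays have no read depth, and their number limits the precision.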

Additional observations from a re-analysis of the deposited data

How the results depend on the processing

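The number of genes past the threshold, 1967, was 1271 without moderation of the variance, 1505 with the replicate block and 358 with at least 1.5-fold, and ran from 1267 to 1700 when single arrays were left out, the lowest without Alb/AEG-1 replicate 1. The 8 higher members became 3 with at least 1.5-fold, 8 with the replicate block and 6 to 9 when single arrays were left out. The 4 lower members became 8 among genes above the median level, where fewer genes are tested, 7 with a variance trend, 9 with array weights, 2 without moderation, 0 with at least 1.5-fold and 4 with the replicate block, and ran from 2 to 5 when single arrays were left out, the lowest without Alb/AEG-1 replicate 1. The cause of these shifts was not tested. No share of all genes is given here for the settings with genes above the median level, a variance trend or array weights. The rises under those settings are therefore not read as particular to the members. Fn1 turned to -0.14 with the mean of its probe sets, as its 2 probe sets moved in opposite directions. Over the differences of all members and all settings, here with the 1.5-fold threshold counted too, 768 stayed on their side of the threshold. Of the others 40 lost the call, some of them only by the 1.5-fold threshold, 41 gained it and 1, that of Fn1, was reversed. The labels do not say whether the replicate numbers pair the arrays. Deviations of same-numbered arrays from their group means correlated at -0.010, -0.0097 and 0.10 for numbers 1, 2 and 3. For arrays of unlike number the values ran from -0.069 to 0.069. With 3 arrays per genotype these correlations cannot decide whether same-numbered arrays share an isolation or a batch. The hypoxia list, whose alternatives were chosen after seeing the data, had 5 risen genes with the replicate block and 3 at 1.5-fold. Low signal limits the 24 members below the array median.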

Other observations

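Of 19 measured integrin, laminin, collagen IV and focal adhesion genes, 1 rose and 4 fell by limma, with a median difference of -0.03. Col4a1, a basement membrane collagen, fell by 0.42 (SE 0.05, limma adjusted p = 0.00182), although its other probe set gave 0.10. Tln1, the talin gene, fell by 0.59 (SE 0.12), with a second probe set at 0.02, and Pxn, the paxillin gene, fell by 0.37 with 2 of its 3 probe sets past the threshold. Itga6, a laminin receptor subunit, rose by 0.52 (SE 0.09) on a dim probe set, and its other probe set passed too. These counts stand beside backgrounds of 6.83% higher and 9.05% lower over all genes.

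Of 16 other genes listed with actin, annexins and small calcium-binding proteins, 2 rose and 4 fell. Lgals1, the galectin 1 gene, was placed in this list though it is of none of those kinds. It fell by 3.80 at its brightest probe set (SE 0.08, limma adjusted p = 7.40e-07), and a fall was seen on each of its 2 probe sets. Tpm4, a tropomyosin, rose by 0.44, Anxa5 fell by 0.25 and Anxa1 fell by 0.37. Of 10 other YAP and SRF target genes, Crim1, which encodes a transmembrane BMP regulator, fell by 1.03 to a level below the array median, F3, the tissue factor gene, rose by 0.51 and 8 did not pass.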
